A study of Mus musculus with 10 samples.

Results

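The genes described here are the 9 complement components and anaphylatoxin receptors C3, C3ar1, C5ar1, C5ar2, Cfb, Cfp, C4b, C1ra and Serping1, taken by symbol from a table of 28185 genes, and all 9 were found in it. They were measured by RNA-seq in Ly6G+ cells that had been enriched with magnetic beads 3 days after the left coronary artery had been ligated, from the left ventricle below the ligature or from blood. Animals were male C57Bl/6J mice of 12 to 16 weeks, and every group used here had an infarct. The MI group (3 libraries, numbered 13, 19 and 20) and the Blood group (2 libraries, 21 and 22) received no cells, while the MI + MSC group (3 libraries, 15, 17 and 18) and the Blood + MSC group (2 libraries, 23 and 24) came from mice given syngeneic bone marrow mesenchymal stromal cells (MSC) subcutaneously, 1000000 at each of 3 sites. The comparisons ask how the RNA of these cells differs between the infarcted heart and blood, and with and without MSC given at a distance.

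Complement is a cascade of plasma proteins that tags targets for uptake and releases the small peptides C3a and C5a, the anaphylatoxins, when C3 and C5 are cleaved. The classical pathway starts with C1, whose protease C1r activates C1s, and then cleaves C4 and C2. The alternative pathway uses factor B, and properdin stabilises its convertase, the enzyme complex that cleaves C3. Neutrophils and macrophages carry receptors for both anaphylatoxins, neutrophils store properdin in granules, and most other components are made chiefly by the liver and by macrophages.

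The promoters of C3, a ligand precursor that was lower in the heart than in blood, and of C3ar1 are shown because C3ar1 encodes the receptor for the C3 fragment C3a. The 5 highest C3ar1 levels were cardiac, but limma at its main settings (given with C3) and with all 10 libraries called C3ar1 in neither comparison of heart and blood. RefSeq's promoter table (build GRCm38.p6) had an entry for 6 of the 9 genes. Each sequence below is the 250 bases before the RefSeq start, read 5′ to 3′ on the strand of the gene, and each matched GRCm39 once on its chromosome. Capitals mark matches to TTNNGNAA, a loose form of the motif bound by C/EBP factors, and to TGANTCA, that of AP-1, on either strand.
C3, chr17:57535137-57535386, minus strand: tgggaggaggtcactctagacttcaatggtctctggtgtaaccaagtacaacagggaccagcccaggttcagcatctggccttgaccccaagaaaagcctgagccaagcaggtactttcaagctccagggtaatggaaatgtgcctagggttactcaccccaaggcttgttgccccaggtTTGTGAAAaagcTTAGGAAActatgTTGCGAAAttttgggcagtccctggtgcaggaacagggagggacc
C3ar1, chr6:122833117-122833366, minus strand: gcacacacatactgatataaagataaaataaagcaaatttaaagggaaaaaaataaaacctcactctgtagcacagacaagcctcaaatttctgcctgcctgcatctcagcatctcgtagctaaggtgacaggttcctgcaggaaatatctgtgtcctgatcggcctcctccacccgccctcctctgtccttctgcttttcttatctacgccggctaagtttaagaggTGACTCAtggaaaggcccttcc

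The C3 sequence held 3 matches to the C/EBP letters, starting 70, 58 and 45 bases before the start, and the C3ar1 sequence held 1 match to the AP-1 letters, starting 22 bases before it. Of 32851 promoter windows of the same length, 36.8% held at least 1 C/EBP match and 2.61% at least 3, and 6.75% held an AP-1 match. Searched on both strands too were GGG and CC with any 5 bases between for NF-kB (45.8% of windows held at least 1 and 10.7% at least 3; 4 matches in C3, 2 of which overlap each other, and 1 in C3ar1), TATAAA for the TATA box (12.4%; 1 match in C3ar1), GAGGAA for the core of ETS factors (23.3%) and TTCNNNGAA for STAT (7.02%), the last 2 without a match in either sequence. No match of these 2 sequences in capitals overlapped one of the other motifs. Such matches are descriptions of letters, and binding was not measured.

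Depth set the precision of every value below. Libraries held between 148594 (MI 13) and 8602711 reads (Blood + MSC 24), and values are given as normalized counts, which are reads divided by the size factor of the library. A single read was worth 8.40 normalized counts in MI 13, 7.07 in Blood 21 and 0.168 to 2.30 in the other 8 libraries. Ly6g, the gene of the sorting marker, was low in the heart, with 4.75 to 26.9 normalized counts in the 6 cardiac libraries and 41.2 to 645 in the 4 from blood. The sum over 11 neutrophil markers was 2496 to 7916 in MI, 2801 to 13438 in MI + MSC, 44194 to 51265 in Blood and 16403 to 23270 in Blood + MSC. The sum over 10 monocyte and macrophage markers was 1958 to 5094, 2955 to 5636, 2423 to 3826 and 2926 to 3696 in the same order. Of these 10, limma called 3 higher and 0 lower in MI than in Blood, where 21.2% of all tested genes were called higher. It called 4 higher and 0 lower in MI + MSC than in Blood + MSC, where 8.23% were called higher. Endothelial markers (8 genes) summed to 1727 to 1891 in MI and 403 to 786 in MI + MSC. In blood they summed to 601 in Blood 21, of which Pecam1 held 586, and to 32.8 to 63.0 in the other blood libraries. Cardiomyocyte markers (7 genes) summed to 1264 to 10035 in the heart and to at most 20.1 in blood, and mural markers (5 genes) to 200.1 to 1051 and at most 21.2. Fibroblast markers (9 genes) summed to 980 to 1723 in the heart and 501 to 1039 in blood, and 6 platelet markers to 24609 in Blood 21, where the other 9 libraries held 445 to 1749. In these bulk samples fewer cells of a type and less RNA per cell cannot be told apart, and the part of these other cells in the results below was not tested.

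**Figure D1:**
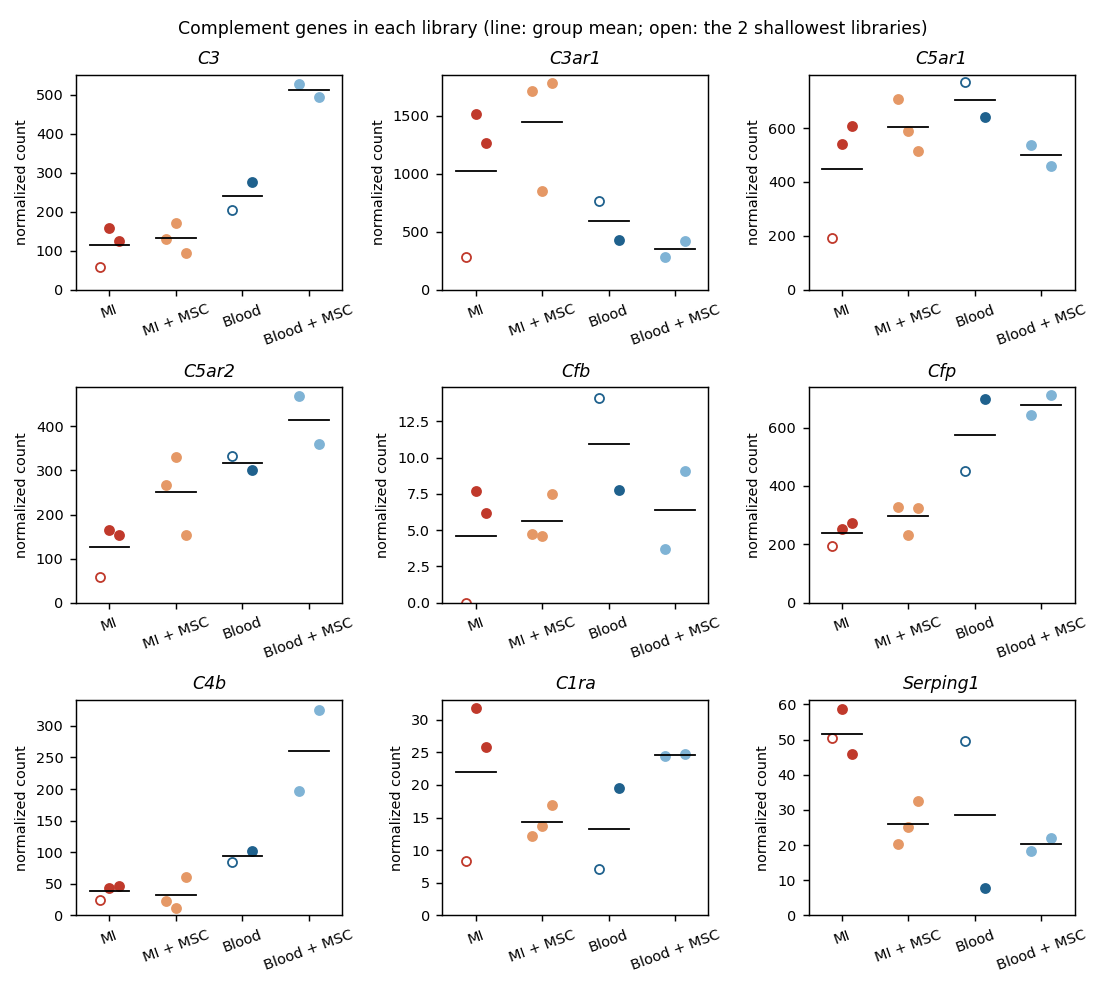
Normalized count of each of the 9 genes (vertical axes, from 0, different for each gene) in every library, by group. Points are libraries, lines are group means and open points are the 2 shallowest libraries, MI 13 and Blood 21. C3, C5ar2, Cfp and C4b lie higher in blood than in MI, and for C3ar1 the 5 highest libraries are cardiac.

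C3 encodes the central component that every complement pathway cleaves. It had 58.8, 157.6 and 125.1 normalized counts (MI 13, 19 and 20), 129.1, 172.2 and 94.9 (MI + MSC 15, 17 and 18), 204.9 and 276.1 (Blood 21 and 22), and 527.7 and 494.2 (Blood + MSC 23 and 24), and the libraries are given in this order for the other genes. All 6 cardiac libraries were below all 4 blood libraries, and both Blood + MSC libraries were above both Blood libraries. Means (± SD) were 113.8 ± 50.4 for MI (n = 3), 132.1 ± 38.7 for MI + MSC (n = 3), 240.5 ± 50.4 for Blood (n = 2) and 510.9 ± 23.7 for Blood + MSC (n = 2). C3 was lower in MI than in Blood by a log2 fold change of -1.16 (SE 0.41, limma adjusted p = 0.0458), and lower in MI + MSC than in Blood + MSC by -1.98 (SE 0.41, adjusted p = 0.0094). Limma fits a linear model to each gene, here on log2(normalized count + 2), a scale that understates the change of low genes. The variance of a gene is shared by all groups and drawn towards a trend over all genes. A gene was called when its Benjamini-Hochberg adjusted p was under 0.05 and its log2 fold change at least 0.5 in size. The first of these calls was at the edge of the threshold, since 9 of the 10 fits that left out 1 library (all except the fit without MI 19) gave an adjusted p of 0.0512 to 0.179, and its log2 fold change ran from -1.45 (without MI 19) to -0.75 (without MI 13) over the 10 fits. The second was lost without Blood + MSC 23 (-1.93, adjusted p = 0.107) or 24 (-2.02, adjusted p = 0.0658).

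C4b encodes complement component C4, which C1s cleaves in the classical pathway. It had 25.2, 44.2 and 47.4 normalized counts (MI), 22.98, 11.5 and 60.3 (MI + MSC), 84.8 and 102.0 (Blood), and 197.0 and 324.7 (Blood + MSC). The cardiac and blood libraries did not overlap, and Blood + MSC lay above Blood. Counts were small in the shallow libraries, with 3 reads in MI 13 (95% Poisson interval 5.20 to 73.7 normalized counts), 5 in MI + MSC 17 and 12 in Blood 21. C4b was 8.26-fold lower in MI + MSC than in Blood + MSC by the ratio of means (log2 fold change -3.21, SE 0.55, limma adjusted p = 0.00379), and this call was lost without Blood + MSC 24 (adjusted p = 0.0522). Between MI and Blood the log2 fold change was -1.26 (SE 0.55, adjusted p = 0.0926), which passed only without MI + MSC 18 (adjusted p = 0.0401). C4b and its near copy C4a share 15.96% of the 100-base stretches of the C4b transcript, so reads could be split between them, and C4a was low throughout, with group means of 2.20 to 7.72 normalized counts.

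Cfp encodes properdin. It had 193.3, 253.8 and 273.3 normalized counts (MI), 329.2, 231.9 and 325.4 (MI + MSC), 452.2 and 699.1 (Blood), and 643.8 and 712.1 (Blood + MSC). Every cardiac library was below every blood library, while the groups with and without MSC overlapped in both tissues. Properdin RNA was lower in MI than in Blood (log2 fold change -1.24, SE 0.32, limma adjusted p = 0.0127) and lower in MI + MSC than in Blood + MSC (-1.21, SE 0.32, adjusted p = 0.0274). The first call held in 9 of 10 fits with 1 library left out, and was lost without Blood 22 (adjusted p = 0.0698). The second was lost without MI + MSC 15, 17 or 18 (adjusted p = 0.0613, 0.0788 and 0.0647) and without Blood + MSC 23 or 24 (0.175 and 0.161), though its log2 fold change stayed between -1.30 and -1.04. Beside these falls, the neutrophil marker sum was also lower in every cardiac library than in every blood library.

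Cfb encodes factor B, and it was scarcely detected. With 0, 8 and 12 reads (MI), 7, 2 and 11 (MI + MSC), 2 and 12 (Blood) and 14 and 54 (Blood + MSC), it had at most 14.1 normalized counts in any library and a mean of 6.53 over all 10, under the minimum of 10 for testing. The 0 in MI 13 allows up to 3 reads, worth 25.2 normalized counts in that library, and the 95% Poisson interval of the kind given for C4b ends at 31.0 there. Factor B reads are uncertain too, because 2246 of the 3420 exon bases of Cfb also belong to Gm20547 on the same strand, a gene that was not among those in the table.

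C3ar1 encodes the receptor for C3a. It had 285.7, 1513.0 and 1262.5 normalized counts (MI), 1708.8, 851.8 and 1778.9 (MI + MSC), 763.1 and 425.6 (Blood), and 283.7 and 417.4 (Blood + MSC). The 5 cardiac libraries other than MI 13 were above all blood libraries, and MI 13, with 34 reads of C3ar1, was near the lowest blood library. The log2 fold change was 1.99 (SE 0.65) between MI + MSC and Blood + MSC, 4.13-fold by means and without overlap, at a limma adjusted p of 0.0627. C3ar1 was called there in 5 of the 20 settings run, including a limma alternative that kept all 10 libraries. At the main settings 14.1% of all tested genes were called there. Among others, edgeR's quasi-likelihood test on the recovered reads called C3ar1 (adjusted p = 0.0296, beside 32.0% of all genes). DESeq2 (adjusted p = 0.00145, beside 29.0%) and limma without MI 13 (adjusted p = 0.00863, beside 22.9%) called it too. Between MI and Blood it was 0.52 (SE 0.65, limma adjusted p = 0.558), 1.28 without MI 13 (adjusted p = 0.0482), and 0.077, 0.21 and 0.10 without MI 19, MI 20 or Blood 22 (adjusted p = 0.937, 0.844 and 0.938). Blood 21, the higher of the 2 Blood libraries for C3ar1, is the library with the high platelet markers.

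C5ar1 encodes the main signalling receptor for C5a, by which neutrophils follow that peptide. It had 193.3, 542.1 and 609.4 normalized counts (MI), 707.0, 590.0 and 515.2 (MI + MSC), 770.1 and 641.3 (Blood), and 536.6 and 460.9 (Blood + MSC). Apart from MI 13, the libraries lay between 460.9 and 770.1. MI and Blood + MSC each lay below Blood without overlap, as did 23.6% and 15.4% of all tested genes. MI + MSC overlapped with both MI and Blood + MSC for C5ar1. Its log2 fold change was -0.81 (SE 0.45) between MI and Blood (limma adjusted p = 0.18), -0.29 without MI 13, and 0.27 (SE 0.45) between MI + MSC and Blood + MSC (adjusted p = 0.723).

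C5ar2 encodes the other C5a receptor, which does not couple to G proteins. The values were 58.8, 165.3 and 153.9 normalized counts (MI), 267.0, 330.6 and 153.2 (MI + MSC), 332.1 and 300.8 (Blood), and 468.1 and 359.6 (Blood + MSC). MI was below Blood without overlap, MI + MSC was spread from the level of MI to that of Blood, and Blood + MSC was above Blood. C5ar2 was lower in MI than in Blood by a log2 fold change of -1.45 (SE 0.45, limma adjusted p = 0.0304), a call that was lost without MI 13 (-0.98, adjusted p = 0.0561), Blood 21 (adjusted p = 0.104) or Blood 22 (adjusted p = 0.0733). Between MI + MSC and Blood + MSC the log2 fold change was -0.78 (SE 0.45, adjusted p = 0.266). The transcripts of C5ar1 and C5ar2, which are neighbours on chromosome 7 (15980668 to 15993465 and 15968503 to 15978121 in GRCm39), share 0 stretches of 100 bases.

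C1ra and Serping1 act at the start of the classical pathway, C1ra as the C1r protease and Serping1 as C1 inhibitor, which blocks C1r and C1s. C1ra had 8.4, 31.7 and 25.7 normalized counts (MI), 12.2, 13.8 and 16.9 (MI + MSC), 7.1 and 19.5 (Blood), and 24.4 and 24.7 (Blood + MSC). It rested on 1 read each in MI 13 and Blood 21, 34.5% of its 100-base stretches are shared with C1rb, and none of its comparisons passed the test in any of the 19 settings run. Serping1 had 50.4, 58.6 and 45.8 normalized counts (MI), 20.3, 25.3 and 32.5 (MI + MSC), 49.5 and 7.8 (Blood), and 18.4 and 22.04 (Blood + MSC). All 3 MI libraries were above all 3 MI + MSC libraries, and the Blood libraries stood far apart. For Serping1 the log2 fold change between MI and Blood was 1.25 (SE 0.57, limma adjusted p = 0.108), and it was 2.45 without Blood 21 (adjusted p = 0.00212), where 7 reads gave 49.5 normalized counts, and 0.053 without Blood 22 (adjusted p = 0.925). It also passed in edgeR (1.70, adjusted p = 0.0447).

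Taken by tissue, 8 of the 9 genes passed the filter, and 3 of them were lower in MI than in Blood (C3, C5ar2 and Cfp) and 0 higher, where 13.5% of all 11549 tested genes were called lower and 21.2% higher (34.7% in either direction). Between MI + MSC and Blood + MSC, 3 were lower (C3, Cfp and C4b) and 0 higher, where 5.85% of all genes were called lower and 8.23% higher. The median log2 fold change of the 8 genes was -0.99 and -0.75 in these comparisons, against 0.15 and 0.086 over all tested genes. An unadjusted p under 0.05 was reached by 4 of the 8 in each comparison, beside 46.5% and 31.2% of all genes. The groups did not overlap for 5 genes lower and 0 higher in MI than in Blood, where 23.6% and 31.6% of all genes were, and for 5 lower and 1 higher (C3ar1) in MI + MSC than in Blood + MSC, where 29.7% and 33.8% were. The same 3 genes were called between MI and Blood with TMM scaling (35.8% of all genes). With scaling by reads per library in place of size factors, the median of all tested genes between MI and Blood moved from 0.15 to 0.63, C3, C5ar2 and Cfp were no longer called (adjusted p = 0.18, 0.0856 and 0.0855) and Serping1 was called higher (1.72, adjusted p = 0.0342), 1 of 8 where 39.7% of all genes were called. Without MI 13 and Blood 21, the 2 shallowest libraries, 4 of the 8 were called between MI and Blood (38.3% of all genes), C3 and Cfp lower and C3ar1 (1.69, adjusted p = 0.0178) and Serping1 (2.46, adjusted p = 0.00123) higher, while C5ar2 was not (-0.91, adjusted p = 0.103). In that fit C3ar1 was also called higher in MI + MSC than in Blood + MSC (adjusted p = 0.00204), beside C3, Cfp and C4b lower, 4 of 8 where 41.3% of all genes were called.

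**Figure D2:**
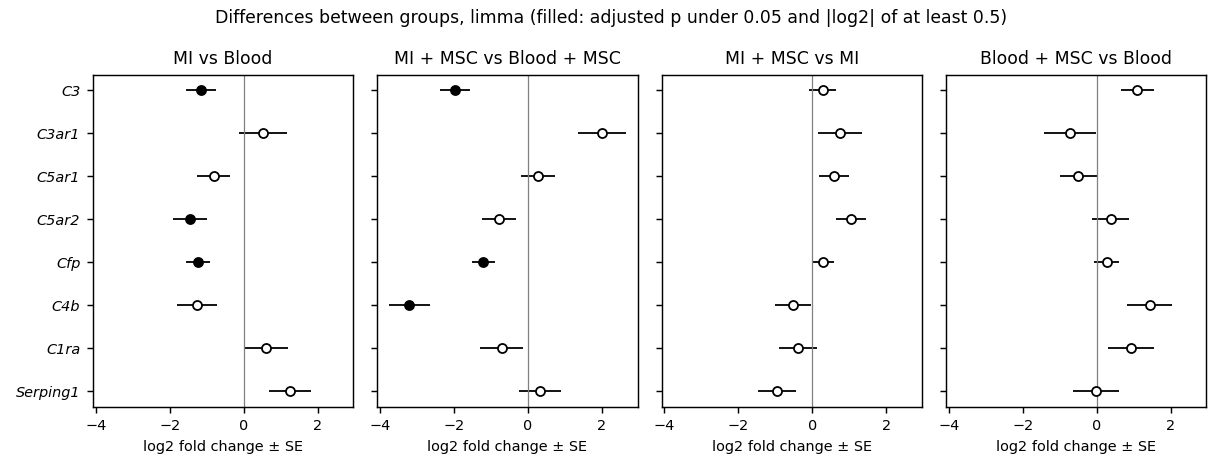
Log2 fold change with its standard error from limma (horizontal axes) for the 8 tested genes in the 4 comparisons, with the first group named over the second. Filled points passed both thresholds. C3, C5ar2 and Cfp are filled for MI against Blood and C3, Cfp and C4b for MI + MSC against Blood + MSC, and none is filled in either comparison with MSC.

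In the heart, MSC treatment gave 0 called complement genes of 8 in limma, edgeR and DESeq2, where 0.0% of all genes were called by limma and edgeR and 0.684% by DESeq2. One gene, C5ar2, had an unadjusted p under 0.05 in limma (as did 8.01% of all genes), with a log2 fold change of 1.04 (SE 0.41, adjusted p = 0.604) in MI + MSC over MI, and 0.57 without MI 13. The MI + MSC libraries were above MI 13 for C3ar1, C5ar1 and C5ar2, but the groups overlapped for all 3. Without MI 13 the log2 fold change was -0.0092 for C3ar1 against 0.75 with it, and 0.059 for C5ar1 against 0.58. Serping1 was the only one of the 8 whose cardiac groups did not overlap, lower in MI + MSC in all libraries (log2 fold change -0.95, SE 0.51, limma adjusted p = 0.647), as were 9.6% of all tested genes. Endothelial and mural marker sums were also lower in all MI + MSC libraries than in all MI libraries. Of 8 tested fibroblast markers, 3 were lower in MI + MSC without overlap and 0 higher. Platelet marker sums were higher (824 to 1749 against 445 to 620). The median log2 fold change of the 6 platelet markers was -0.49, however, with 1 higher without overlap and 0 lower.

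In blood, limma, edgeR and DESeq2 called 0 of the 8 genes between Blood + MSC and Blood, where limma and edgeR called 0.0% of all genes and DESeq2 1.55%. The share over all genes rested on 1 library, since limma without Blood 22 called 1506 genes (13%), and still 0 of the 8. Blood 21 was then the lone Blood library and was assumed to vary like the other groups. In limma, C3 and C4b had an unadjusted p under 0.05, as had 7.34% of all genes. C3 was 2.12-fold higher by means (log2 fold change 1.10, SE 0.45, limma adjusted p = 0.672) and C4b 2.79-fold (1.42, SE 0.60, adjusted p = 0.672). With each library left out in turn these values stayed between 0.88 and 1.31 for C3 and between 1.07 and 1.78 for C4b. The groups did not overlap for C3, C4b, C5ar2 and C1ra, higher in Blood + MSC (21% of all genes), or for C3ar1 and C5ar1, lower in it (15.4% of all genes). Neutrophil marker sums were lower in both Blood + MSC libraries than in both Blood libraries, and these are also the 2 deepest libraries. All 6 platelet markers were lower there without overlap too (median log2 fold change -3.96), with sums of 24609 and 1066 in Blood 21 and 22 and of 671 and 570 in Blood + MSC 23 and 24.

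No gene of the 8 passed the test of whether the difference with MSC differed between heart and blood in limma or edgeR, where 0.0% of all genes passed in each. DESeq2 gave an adjusted p there to 801 genes, 2.5% of which passed, and to 3 of the 8 (C3ar1, C5ar1 and Cfp), none of which did. Without Blood 22, limma passed 9.48% of all genes and 0 of the 8. C4b came nearest, with a difference of differences of -1.95 (SE 0.77, limma adjusted p = 0.63) and the only unadjusted p under 0.05 of the 8, and 7.26% of all tested genes had an unadjusted p under 0.05 there. Each comparison with MSC shares libraries with both comparisons of heart and blood, so their values are not independent of each other.

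Per kilobase of exon, the order of levels differed between the tissues. In MI, C3ar1 had the highest mean level of the 9 (203.6 ± 129.4 normalized counts per kilobase, SD, n = 3), before C5ar1 (174.4 ± 86.9) and Cfp (137.9 ± 23.96), and these 3 lay within each other's spread. In Blood, Cfp (330.6 ± 100.3, SD, n = 2) and C5ar1 (274.6 ± 35.5) came first and within their spread, and C3ar1 followed at 118.6 ± 47.6. C5ar2 ranked 4 and C3 ranked 5 in MI, MI + MSC and Blood, whereas in Blood + MSC C3 (98.6 ± 4.6, SD, n = 2) ranked 3, within the spread of C5ar2 (94.1 ± 17.4). Cfb was last in all 4 groups, and C4b, C1ra and Serping1 took the 3 places before it.

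Ratios within a library are free of its scaling. The 3 ratios given here were chosen after the values had been seen, so they are given as descriptions, with no p. C3ar1 per kilobase was 0.74 to 1.77 times C5ar1 in the 6 cardiac libraries and 0.271 to 0.508 times in the 4 blood libraries. MI 13, low in both genes, had a ratio of 0.758 and so lay with the other cardiac libraries. C3 was 0.0516 to 0.199 times C3ar1 in the heart, 0.260 and 0.627 times in Blood 21 and 22, and 1.80 and 1.14 times in Blood + MSC 23 and 24. The 0.199 was that of MI 13, with 7 reads of C3, and Blood 21 had 29 reads of it. C5ar2 was 0.148 to 0.178 times C5ar1 in MI, 0.174 to 0.327 in MI + MSC, and 0.252 and 0.274 (Blood) and 0.510 and 0.456 (Blood + MSC) in the blood libraries, so that the 2 C5a receptors were nearest to each other in Blood + MSC.

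**Figure D3:**
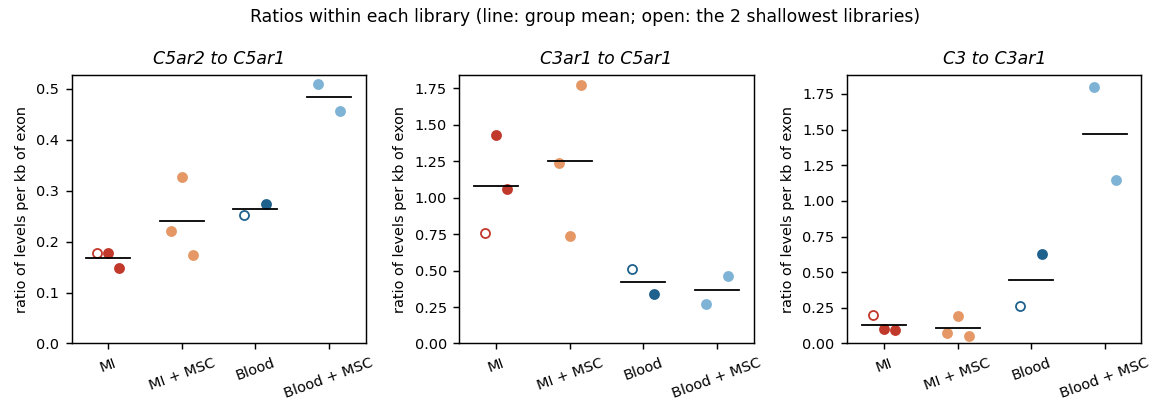
Ratio of 2 genes' levels per kilobase of exon within each library (vertical axes, from 0), by group. Points are libraries, lines are group means and open points are MI 13 and Blood 21. The C3ar1 to C5ar1 ratio is above 0.7 in every cardiac library and at most 0.508 in blood, and the C3 to C3ar1 ratio is highest in Blood + MSC, at 1.14 and 1.80.

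Of 40 other complement genes on a hand-written list, 38 were in the table and 16 passed the filter. Between MI and Blood 5 were lower and 0 higher, namely Fcna (ficolin A, a lectin that starts the lectin pathway; log2 fold change -3.21), Cd46 (a cofactor for cleavage of C3b; -2.00), Cr1l (also called Crry, the membrane regulator of mouse C3 convertases; -1.46), Itgam (-0.99) and Itgb2 (-1.64), the last 2 of which form the receptor CR3 for cleaved C3b, with limma adjusted p from 0.0018 to 0.0456, where 13.5% of all tested genes were called lower and 21.2% higher. Between MI + MSC and Blood + MSC 3 were lower, Fcna (-4.76), Cr1l (-1.45) and Itgb2 (-1.61), and Cd93 was higher (2.90), with adjusted p from 5.63e-04 to 0.0128, where 5.85% of all tested genes were called lower and 8.23% higher. Fcna ranged from 24.03 to 46.3 normalized counts (MI) and from 11.5 to 56.3 (MI + MSC), and had 289.7 and 309.3 (Blood) and 524.3 and 741.2 (Blood + MSC), with no overlap between tissues and Blood + MSC above Blood as for C3 and C4b. In the comparisons with MSC 0 of the 16 were called by limma (0.0% of all tested genes), and 0 had an unadjusted p under 0.05, where 8.01% of all tested genes had one in the heart and 7.34% in blood.

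The 3 chains of C1q, the recognition part of C1, were abundant everywhere, and none was called in any of the 4 comparisons. C1qa had 336 to 1247 normalized counts (MI), 1104 to 2263 (MI + MSC), 2438 and 1218 (Blood), and 1079 and 1379 (Blood + MSC). The terminal components were scarcely detected, since of Hc, which encodes C5, and C6, C7, C8a, C8b, C8g and C9 only Hc passed the filter. Hc rested on 8 reads in MI 13 (67.2 normalized counts) and had at most 13.8 normalized counts in the other libraries.

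**Figure D4:**
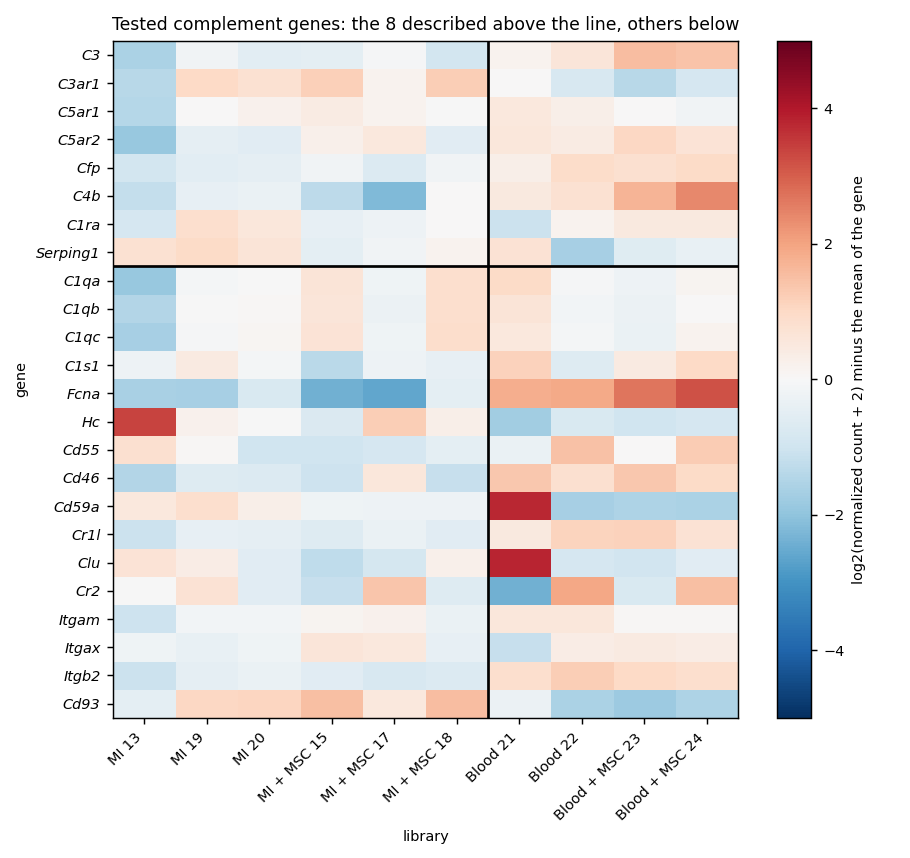
Log2(normalized count + 2) minus the gene's mean over the 10 libraries (colour) for the 8 tested genes described here, above the line, and the 16 other tested complement genes, below it. Columns are libraries, cardiac to the left of the vertical line. C3, C4b and Fcna are highest in Blood + MSC, the 5 highest values of C3ar1 are cardiac, and Clu and Cd59a are highest in Blood 21, with 2289 and 254 normalized counts.

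Genes with the most similar pattern were found, for each of the 8, by the lowest mean absolute difference of centred log2(normalized count + 2) over the 10 libraries. For C3 these were Itch (0.25, where the median over all tested genes was 0.92) and Nt5c2 (0.26), and for C4b Saa3, an acute phase serum amyloid (0.40, median 1.21), and Pltp (0.45). C3ar1 was nearest to S1pr2 (0.17, median 1.02) and Rab7b (0.21), C5ar1 to Gosr2 and Arf3 (both 0.11, median 0.64), and C5ar2 to Ncf1, a subunit of the phagocyte NADPH oxidase (0.12, median 0.82), and Cd300a (0.16). Cfp was nearest to Relch and Uba1 (0.088 and 0.09, median 0.76), C1ra to Ube2d1 (0.20, median 0.69) and Ddx46 (0.21), and Serping1 to Slc20a2 (0.23, median 0.85) and Afdn (0.24). Among the 8 themselves, C3 and C5ar2 were the most alike (0.41) and C3ar1 and C4b the least (1.72).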

How the data were processed

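RNA-seq of Ly6G+ cells from 10 libraries was analysed, grouped by their labels as MI, MI + MSC, Blood and Blood + MSC. According to the study's methods, the authors trimmed reads (Trimmomatic), removed duplicates (Picard), mapped with STAR to GRCm39, counted by strand with featureCounts and dropped mitochondrial reads before normalization with DESeq2. The deposited tables hold signal values, the authors' counts divided by DESeq2 size factors, and both tables, the one named raw included, are equal in 281850 of 281850 values. All values (100% within 0.01 reads) were whole multiples of a single read's value, so reads were recovered. Low depth makes values coarse in MI 13 and Blood 21, and intervals and floors of 3 reads cover counting error alone.

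limma 3.58.1 with an intensity trend was fitted to log2(normalized count + 2) of genes with a mean of at least 10 (11549 of 28185), over all 10 libraries with 1 mean per group, and p-values were adjusted by Benjamini-Hochberg over all of them. Calls needed an adjusted p under 0.05 and a log2 fold change of 0.5 or more in size, those of the interaction the adjusted p alone. Alternatives were pseudocounts of 1 and 5, a mean of at least 20, no filter, TMM or reads per library as scaling, edgeR 4.0.16 and DESeq2 1.42.0 on recovered reads, each library left out, and the 2 shallowest left out. R 4.3.3, Python 3.11.15 and pandas 2.3.3 were used. Gene models came from GENCODE for GRCm39, which held 27906 of the identifiers. The labels do not tie libraries to single animals, so p-values measure the spread between these libraries. The genes described, the lists, the pseudocount and the filter were chosen with earlier results of these data known, and the motifs and the 2 printed promoters after values had been seen. Named were all 9 genes, other listed complement genes called between tissues or with an unadjusted p under 0.05 with MSC, and the 2 nearest patterns per gene. C1q chains, Hc, C6, C7, C8a, C8b, C8g, C9, C4a, C1rb, Clu and Cd59a were named outside this rule, after their values were seen. Another gene of the list is not reported here.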

Additional observations from a re-analysis of the deposited data

How the results depend on the processing

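No complement gene of the 8 was called in either comparison with MSC, or in the interaction where it had an adjusted p (3 of the 8 in DESeq2), under any alternative run. Over all genes the share called was 0.0% to 0.684% in the heart and 0.0% to 13% in blood, the 13% being without Blood 22, and in the interaction 0.0% except 9.48% without Blood 22 and 2.5% of 801 genes in DESeq2. Between MI and Blood the count of 3 called genes (34.7% of all genes) was 2 with no filter (16%), 4 in edgeR (35.5%), 4 without the 2 shallowest libraries (38.3%; 2 lower and 2 higher), 1 with scaling by reads per library (39.7%) and 0 to 3 with 1 library left out (28.3% to 33.7%), the 0 being without Blood 22 (33.7%). Between MI + MSC and Blood + MSC the count of 3 (14.1% of all genes) was 0 to 4 with 1 library left out, beside 2.3% to 23.4% of all genes (0 and 4.4% without Blood + MSC 24, 1 and 2.3% without 23), and 2 to 4 under the other alternatives, beside 4.63% to 41.3% (32.0% in edgeR). Directions turned only for differences that were not called. With 1 library left out, the log2 fold change between MI + MSC and MI ran from -0.13 (without MI 13) to 0.57 for C3 and from -0.0092 (without MI 13) to 1.19 for C3ar1, and between Blood + MSC and Blood from -0.046 (without Blood 21) to 0.58 for Cfp and from -1.22 to 1.18 (without Blood 21) for Serping1. Between MI and Blood C1ra ran from -0.0096 (without Blood 21) to 1.24. In the interaction Cfp ran from -0.29 to 0.34 and Serping1 from -2.13 to 0.26 (without Blood 22). Without both shallow libraries C3 was -0.13 and C3ar1 -0.0092 in the heart, and Cfp -0.046 and Serping1 1.18 in blood. Serping1 in blood was also 0.0046 with a pseudocount of 1, 0.24 with scaling by reads and 0.44 in edgeR, and Cfp in the interaction -0.40 with scaling by reads. The cause of these turns was not tested. No paired analysis was possible, because the labels number the libraries and do not say which came from the same mouse. According to the study's methods, animals gave blood before the heart was taken. Heart and blood libraries may therefore share mice, and the tests took no account of this. Depth limits the low genes, with 0 and 2 reads of Cfb, 1 and 1 of C1ra, 3 and 12 of C4b and 6 and 7 of Serping1 in MI 13 and Blood 21. C3 and C5ar2 each had 7 reads in MI 13, and 29 and 47 in Blood 21.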
